A study of Homo sapiens with 12 samples.

Results

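The genes described are the caveolins CAV1 and CAV2 and the cavins CAVIN1, CAVIN2 and CAVIN3, which code for the coat proteins of caveolae. They were chosen by symbol, and a probe set counted only where the array's annotation gives it no other gene. The older symbols PTRF, SDPR and PRKCDBP were read as CAVIN1, CAVIN2 and CAVIN3. This gave 5 of 19775 named genes and 11 of 54675 probe sets: 2 for CAV1, 3 for CAV2, 3 for CAVIN1, 2 for CAVIN2 and 1 for CAVIN3.

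The cells were CL1-5 and CL1-0, sublines grown out of the same human lung adenocarcinoma, CL1-5 being the more invasive, and their messenger RNA was read on 12 Affymetrix arrays. There were 4 groups of 3 arrays: CL1-5 under a direct-current electric field of 300 mV/mm, CL1-5 without field (0 mV/mm), CL1-0 under 300 mV/mm and CL1-0 without field. Every group had been kept overnight in a microfluidic chip in DMEM with fetal bovine serum, then spent 2 h in serum-free DMEM with or without the field, and was taken off with trypsin. Each line is a single cultured line, the labels call the arrays biological replicates, and nothing states whether they came from separate cultures, so p-values measure only the spread between these arrays, which may in part be technical.

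Caveolae are flask-shaped pits of the plasma membrane, abundant in endothelium, fat, smooth muscle and alveolar type I cells of the lung. Caveolin-1 is their main membrane protein and forms oligomers with caveolin-2, which depends on caveolin-1 to leave the Golgi. Cavin-1 is needed to build the coat, while cavin-2 and cavin-3 join it and modify its shape and traffic. Caveolae flatten when the membrane is stretched and then release cavins. In lung cancer cells caveolin-1 has been studied both as a restraint on growth and as a driver of invasion.

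The sequence just before the gene start is shown for the members found in RefSeq's promoter table, because both caveolin genes were higher in CL1-5 while CAVIN2 stayed at or below the array median on all but 1 array. The 250 bases before the most upstream start are given, 5′ to 3′ on the strand of the gene, from RefSeq on build GRCh38.p14. These are chr7:116524759-116525008 on the plus strand for CAV1, chr7:116499488-116499737 on the plus strand for CAV2 and chr2:191847089-191847338 on the minus strand for CAVIN2. Capitals mark matches on either strand to the GC box GGGCGG, and in CAVIN2 to the TEAD core GGAATG.
CAV1: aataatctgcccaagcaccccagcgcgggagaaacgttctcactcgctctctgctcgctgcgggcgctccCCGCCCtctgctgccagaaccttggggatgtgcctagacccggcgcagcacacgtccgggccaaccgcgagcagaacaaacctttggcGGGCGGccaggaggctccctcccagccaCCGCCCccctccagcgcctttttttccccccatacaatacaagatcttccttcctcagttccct
CAV2: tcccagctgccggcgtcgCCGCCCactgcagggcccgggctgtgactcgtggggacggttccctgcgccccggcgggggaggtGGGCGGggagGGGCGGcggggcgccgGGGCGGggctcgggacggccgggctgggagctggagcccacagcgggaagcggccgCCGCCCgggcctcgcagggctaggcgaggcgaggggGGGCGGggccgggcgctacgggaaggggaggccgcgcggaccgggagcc
CAVIN2: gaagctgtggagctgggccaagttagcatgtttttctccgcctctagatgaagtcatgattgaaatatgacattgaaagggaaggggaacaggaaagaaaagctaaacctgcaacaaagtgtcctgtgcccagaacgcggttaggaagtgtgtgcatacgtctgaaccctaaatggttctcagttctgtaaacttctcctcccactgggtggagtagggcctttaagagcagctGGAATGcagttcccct
Of 5 members, 3 were in the table. The CAV2 window held 6 matches to the GC box and the CAV1 window 3, while the CAVIN2 window held 0. Among 27305 windows of the same length, 42.19% held at least 1 such match, 13.86% at least 3 and 2.23% at least 6. G and C made up 83.2% of the CAV2 window, 63.6% of the CAV1 window and 48.0% of the CAVIN2 window, against a median of 57.6% over all windows. The CpG pair occurred 35 times in CAV2, 18 times in CAV1 and 4 times in CAVIN2, against a median of 10. The TEAD core, found once in CAVIN2, occurred in 11.95% of windows. None of the 3 windows held the AP-1 site TGANTCA, the TATA box TATAAA, the CCAAT box or the cyclic AMP element's TGACG, each searched on both strands. Matches are letters in these windows and no measure of binding.

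All values are signals in the linear intensity units deposited by the authors, which the submitters' processing notes credit to MAS5. Differences are on the log2 scale after signals under 1 were set to 1, with standard errors (SE) from a limma fit of 4 group means to the 12 arrays. A probe set entered that fit if it was above the median of its own array on at least 3 arrays, which 31890 probe sets and 9 of the 11 described here did. The levels of different probe sets are not compared with each other. The genes were chosen with the difference between the lines in view, so that difference is given as a description with no p-value. The response to the field was tested.

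The 4 arrays of replicate 1 stood apart from the other 8 in a spike-in control. The poly-A control dap, which is spiked into the RNA before it is labelled, read 1.37 to 13.3 on replicate 1 and 1644 to 2333 on replicates 2 and 3. Every group held 1 such array, so values of replicate 1 and of replicates 2 and 3 are given apart below. The labels do not say why the control differed or whether the labelling did. The part of this spike-in difference in any result was not tested.

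Caveolin-1 was higher in CL1-5 by both of its probe sets, with and without the field. By 212097_at the signals were 25283, 30045 and 32761 in CL1-5 under the field and 31412, 29664 and 29983 in CL1-5 without it, against 7066, 14024 and 12677 in CL1-0 under the field and 7147, 10839 and 10906 in CL1-0 without it. The lowest CL1-5 array lay above the highest CL1-0 array, and replicate 1 was the lowest array of both CL1-0 groups. The mean log2 level was 14.89 ± 0.04 (SD, n = 3) in CL1-5 without field and 14.83 ± 0.19 in CL1-5 under it, followed by 13.40 ± 0.53 in CL1-0 under the field and 13.21 ± 0.35 in CL1-0 without it. In that order the field and no-field groups of a line overlapped, and the step between the lines did not. CL1-5 exceeded CL1-0 by 1.44 ± 0.25 on the log2 scale under the field (2.71-fold) and by 1.68 ± 0.25 without it (3.21-fold). The fold was 3.58 under the field and 4.40 without it between arrays of replicate 1, against 2.14 and 2.58 under the field and 2.74 and 2.75 without it between arrays of replicates 2 and 3. In RNA of a whole culture fewer cells of a type and less RNA per cell cannot be told apart.

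The other CAV1 probe set, 203065_s_at, gave 15899.5, 9991 and 10992 in CL1-5 under the field and 14263, 10100.4 and 9596 without it, against 2638, 3226 and 2797 in CL1-0 under the field and 2179, 2825 and 2916 without it. Here replicate 1 was the highest array of both CL1-5 groups, while in CL1-0 it was the lowest of both groups. The difference between the lines was 2.07 ± 0.23 under the field (4.19-fold) and 2.09 ± 0.23 without it (4.25-fold). Between arrays of replicate 1 it was 6.03-fold under the field and 6.55-fold without it, and between arrays of replicates 2 and 3 it ran from 3.10-fold to 3.93-fold under the field and from 3.29-fold to 3.58-fold without it.

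Caveolin-2, the partner of caveolin-1 in the membrane oligomer, was higher in CL1-5 by all 3 of its probe sets, 2 of them without overlap in both conditions. By 203324_s_at the signals were 9004, 21056 and 24456 in CL1-5 under the field and 23135, 18636 and 20828 without it, against 4370.5, 6917 and 6753 in CL1-0 under the field and 4247, 6447 and 7919 without it. Replicate 1 of CL1-5 under the field stood below the other 5 arrays of that line and still above all 6 of CL1-0. The lines differed by 1.50 ± 0.36 under the field (2.83-fold) and by 1.79 ± 0.36 without it (3.46-fold). Between arrays of replicate 1 the fold was 2.06 under the field and 5.45 without it, and between arrays of replicates 2 and 3 it was 3.04 and 3.62 under the field and 2.89 and 2.63 without it. Mean log2 levels ran from 14.34 ± 0.16 in CL1-5 without field through 14.03 ± 0.78 in CL1-5 under it and 12.55 ± 0.46 in CL1-0 without field to 12.52 ± 0.37 in CL1-0 under it, and only the middle step separated groups that did not overlap.

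By 203323_at, CAV2 gave 3113, 6133 and 6343 in CL1-5 under the field and 4587, 7725 and 5773 without it, against 1055, 2746 and 3002 in CL1-0 under the field and 931, 1754 and 2488 without it. Replicate 1 was the lowest array in all 4 groups, and the lowest CL1-5 array was close to the highest CL1-0 array. The difference between the lines was 1.27 ± 0.46 under the field (2.41-fold) and 1.88 ± 0.46 without it (3.69-fold). Replicate 1 gave 2.95-fold and 4.92-fold in these conditions, against 2.11-fold to 2.23-fold and 2.32-fold to 4.41-fold in replicates 2 and 3. The dim probe set 213426_s_at gave 142, 369.9 and 308 in CL1-5 under the field and 132, 265 and 317 without it, against 40.7, 133 and 101 in CL1-0 under the field and 75.2, 157 and 99.8 without it. By this probe set the lines did not overlap under the field (1.63 ± 0.54) and overlapped without it (1.07 ± 0.54), where the 95% interval of the difference ran from -0.11 to 2.26.

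Cavin-1, which the caveolar coat requires, was above the array median on all 12 arrays, and by its highest-signal probe set the lines overlapped. By 208789_at, the signals were 6957, 5229.8 and 5922 in CL1-5 under the field and 5964, 4171 and 4242 without it, against 5808, 8695 and 5774 in CL1-0 under the field and 6715, 5195 and 3955 without it. All 4 groups overlapped. The difference between the lines was -0.15 ± 0.25 under the field and -0.13 ± 0.25 without it, with 95% intervals of -0.69 to 0.40 and -0.67 to 0.42.

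The other CAVIN1 probe sets were lower in CL1-5 without overlap under the field, and lower in all 3 pairs of arrays with the same replicate number in both conditions. By 1557938_s_at the signals were 2402, 2539 and 2721 in CL1-5 and 3958, 5269 and 3049.6 in CL1-0 under the field, a difference of -0.65 ± 0.38 with a 95% interval of -1.48 to 0.18. By 208790_s_at they were 748, 503 and 640.1 in CL1-5 and 1500.2, 817 and 794 in CL1-0 under the field, a difference of -0.67 ± 0.51 with an interval of -1.79 to 0.44. Without the field both overlapped, with differences of -0.14 ± 0.38 and -0.25 ± 0.51. The signals of 208790_s_at there were 1170.4, 440.2 and 512 in CL1-5 and 1749, 484 and 524 in CL1-0. In those groups replicate 1 stood above the others in both lines, with 4070.0 in CL1-5 and 4821 in CL1-0 by 1557938_s_at, against 1859.7 and 1978 in the other CL1-5 arrays and 2075 and 1986 in the other CL1-0 arrays. Within pairs the differences of 1557938_s_at were -0.72, -1.05 and -0.16 under the field and -0.24, -0.16 and -0.01 without it, and those of 208790_s_at were -1.003, -0.70 and -0.31 under the field and -0.58, -0.14 and -0.03 without it. Leaving out single arrays, which breaks a pair, moved the differences of the 3 CAVIN1 probe sets without field to between -0.68 and 0.35.

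Cavin-2 was not measured well enough to compare. By 218711_s_at the signals were 73.0, 28.6 and 17.3 in CL1-5 under the field and 29.6, 45.3 and 2.84 without it, against 22.6, 25.9 and 48.7 in CL1-0 under the field and 8.55, 23.0 and 38.7 without it. Only the first of these was above the median of its array, and by 222717_at no array was, with signals from 1.56 to 15.9 in CL1-5 and from 0.507 to 32.8 in CL1-0. Neither probe set entered the fit, and no fold is given.

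Cavin-3, also known as a binding protein of protein kinase C delta, showed the widest separation of the members. Its probe set 213010_at gave 1468, 2804 and 2561 in CL1-5 under the field and 1705, 2034 and 2443 without it, against 17.4, 13.9 and 5.78 in CL1-0 under the field and 17.4, 4.43 and 2.57 without it. All 6 CL1-5 arrays were above their array's median and all 6 CL1-0 arrays below it. With the CL1-0 values raised to the array median, CL1-5 was at least 33.3-fold higher under the field and at least 32.3-fold higher without it. The fitted differences of 7.62 ± 0.64 and 8.45 ± 0.64 rest on CL1-0 values below the medians of their arrays, which were 60.7 to 69.0. Between arrays of replicate 1 the difference was 6.40 under the field and 6.62 without it, and in replicates 2 and 3 it was 7.65 and 8.79 under the field and 8.84 and 9.89 without it.

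**Figure D1:**
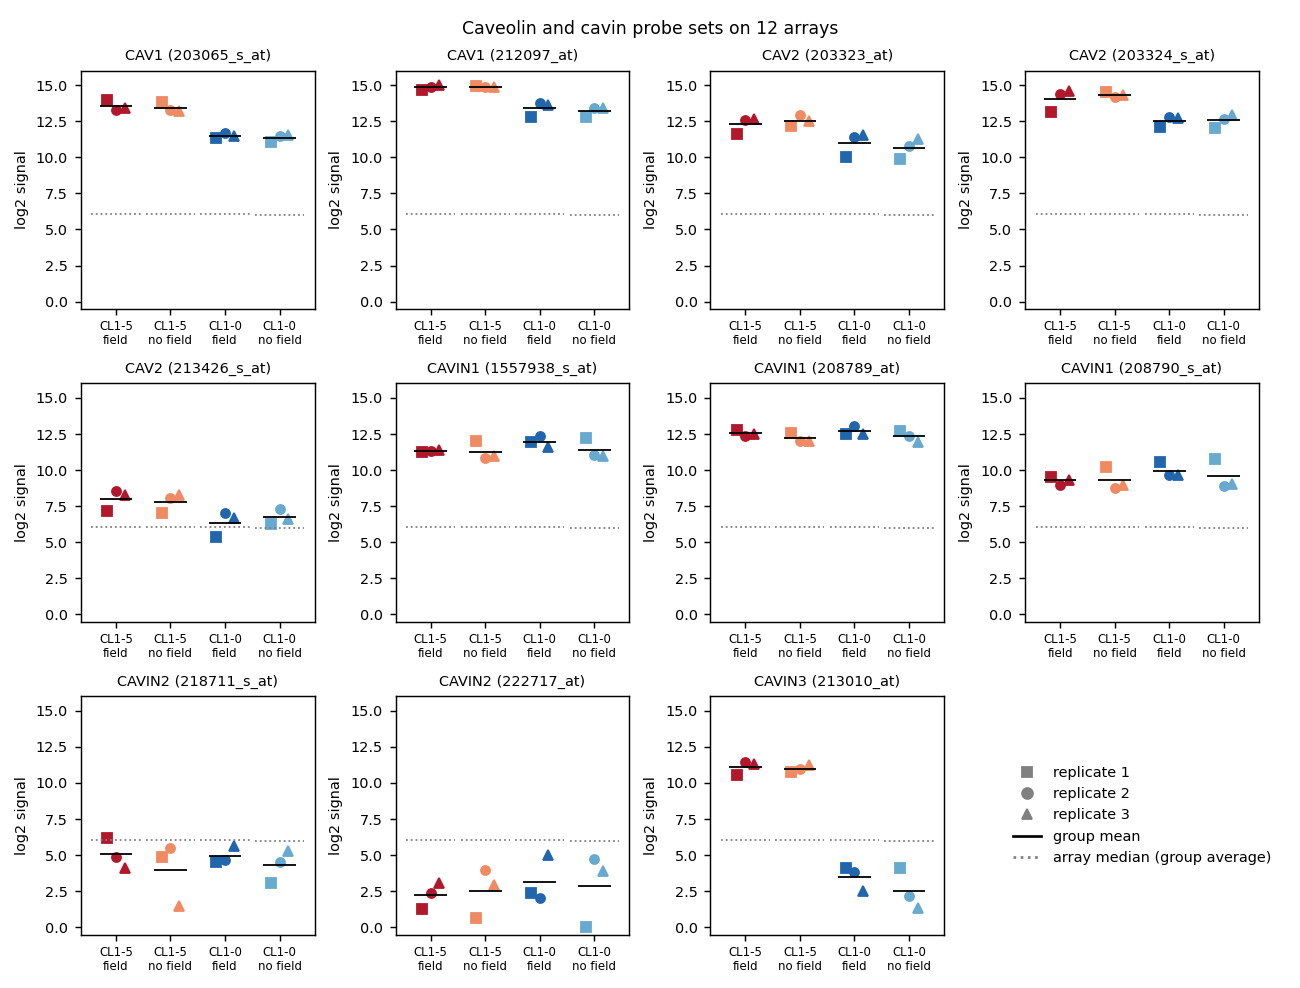
Log2 signal of each caveolin and cavin probe set (y axis) on the 12 arrays, by group (x axis). Points are arrays with the shape giving the replicate number, solid lines are group means of 3 arrays and dotted lines the array median. Both CAV1 probe sets and CAVIN3 separate the lines completely, CAVIN1 separates the lines by 1557938_s_at and 208790_s_at under the field, with CL1-5 lower, and overlaps otherwise, and CAVIN2 lies at or below the dotted line on all but 1 array.

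Of the 9 probe sets in the fit, 6 were higher in CL1-5 without overlap under the field and 5 without it, while 2 and 0 were lower. Over all 31890 probe sets, 14.6% were higher without overlap under the field and 14.3% without it, and 16.2% and 14.5% were lower. The same contrast chose the genes, so these counts are read no further. The median difference of the 9 was 1.44 under the field and 1.68 without it, against -0.08 and -0.01 over all probe sets in the fit. In arrays paired by replicate number, all 5 caveolin probe sets and that of CAVIN3 were higher in CL1-5 in all 3 pairs of both conditions, and the CAVIN1 probe sets 1557938_s_at and 208790_s_at were lower in all 3. CAVIN1 208789_at was higher in 2 of 3 pairs under the field and in 1 of 3 without it. No share over all probe sets is given for agreement between pairs, so the pair counts are read no further either.

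**Figure D2:**
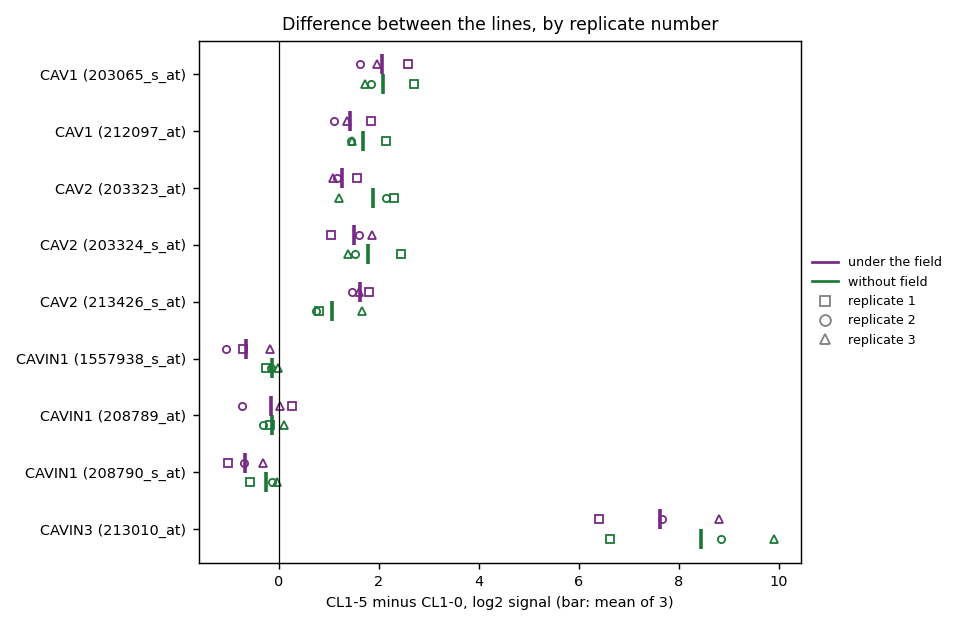
Difference in log2 signal between CL1-5 and CL1-0 (x axis) for the 9 probe sets in the fit (y axis), under the field in purple and without it in green. Open symbols are pairs of arrays with the same replicate number and bars their mean over 3 pairs. CAV1, CAV2 and CAVIN3 lie right of 0 in every pair, and CAVIN1 lies around 0 or left of it.

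Markers of cells rich in caveolae were read beside these results. Of 5 endothelial genes 2 were above the array median on every CL1-5 array and 1 on every CL1-0 array, and their summed signal was 475 to 2234 in CL1-5 under the field and 609.8 to 2569 without it, against 149 to 228 in CL1-0 under the field and 135 to 178 without it. CLDN5, a tight junction protein, differed by 4.53 ± 0.65 under the field (limma adjusted p = 0.000791) and by 4.90 ± 0.65 without it (adjusted p = 0.000443). PECAM1, an adhesion molecule above the median on all 12 arrays, differed by 1.94 ± 0.76 (limma adjusted p = 0.122) and 2.05 ± 0.76 (adjusted p = 0.109), or 0.00385 and 0.00306 with the block, while VWF, CDH5 and EMCN were at or below the median on all 12 arrays. ADIPOQ, PLIN1 and LEP of fat cells and PTPRC and CD14 of leukocytes were also at or below it on all 12, while CD3E, the other leukocyte gene measured, was above it on 3 of 6 CL1-5 arrays and 3 of 6 CL1-0 arrays. Epithelial KRT7, KRT8, KRT18 and MUC1 and the lung genes NKX2-1 and SFTPB were above it on all 12, EPCAM on 0 of 6 CL1-5 arrays and all 6 CL1-0 arrays, and CDH1 on 3 of 6 and all 6. ESRP1, an epithelial splicing factor, went the other way, above it on 4 of 6 CL1-5 arrays and 0 of 6 CL1-0 arrays, and KRT19 was above it on 0 of 6 and 2 of 6. The lung gene NAPSA was above it on 3 arrays of each CL1-5 group and 2 of each CL1-0 group. SFTPC was above it on 0 arrays in CL1-5 under the field and on 2 in every other group. SCGB1A1 was above it on 2 arrays in CL1-0 under the field and on 0 in every other group. Of the muscle genes, DES was above the median on 1 and 0 arrays in CL1-5 with and without the field, and on 1 and 3 in CL1-0. MYH11 was above it on 1 and 0 arrays in CL1-5, and on 1 and 1 in CL1-0. ACTA1 was above it on 1 array in CL1-5 under the field and on 0 in every other group. Summed signals of 6 fat and muscle genes were 128 to 258 and 124 to 194 in CL1-5 with and without the field, against 144 to 276 and 153 to 270.2 in CL1-0. Those of 6 fibroblast genes were 323 to 486 and 371 to 534 in CL1-5 with and without the field. In CL1-0 they were 496 to 740 and 460 to 905, above those of CL1-5 under the field and overlapping with them without it. Among the fibroblast genes COL1A1 was above the median on all 12 arrays. DCN was above it on 1 array of each CL1-5 group, and on 2 and 3 in CL1-0 with and without the field. PDGFRB was above it on 1 array of each CL1-5 group, and on 0 and 2 in CL1-0. COL3A1 was above it on 0 arrays of each CL1-5 group, and on 1 and 2 in CL1-0. COL1A2 and LUM were above it on 0 or 1 array of each group. Of 4 tested fibroblast genes 0 were called in either condition. With the block COL3A1 was lower in CL1-5 in both (limma adjusted p = 0.00972 under the field and 0.0480 without it). The part of cells with these endothelial genes in the caveolin result was not tested.

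The profiles of the caveolin probe sets over the arrays were also compared with each other. After each profile was centred on its own mean over the 12 arrays, CAV1 212097_at and CAV2 203324_s_at differed by a root mean square of 0.29 on the log2 scale. The corresponding value was 0.33 for CAV1 212097_at and CAV2 203323_at, and 0.40 for the CAV1 probe sets against each other. For CAV1 212097_at and the dim CAV2 213426_s_at it was 0.49. CAV1 203065_s_at lay further from CAV2, at 0.56 from 203324_s_at, 0.66 from 203323_at and 0.81 from 213426_s_at. Against CAVIN1 208789_at, CAV1 212097_at differed by 0.94, and against CAVIN3 by 3.37. Within CAVIN1 the 3 probe sets differed from each other by 0.31 to 0.52. The spread of the CAV1 212097_at profile around its own mean was 0.83 on the same scale. These values describe 12 arrays, which all share the split into lines and the spike-in difference of replicate 1.

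Outside the members, the genes with the profile nearest to CAV1 over the 12 arrays were HIF1A (0.10), the oxygen-regulated transcription factor subunit, ENDOD1 (0.16) and PPARD (0.18), a fatty acid receptor of the nucleus, against a median of 1.003 over 13825 genes. Nearest to CAV2 203324_s_at were TRIM8 (0.21), RNF145 (0.23), both of the RING ubiquitin ligase class, and PCDHB6 (0.24), a protocadherin, against a median of 1.08. HIF1A averaged 14.75 in CL1-5 and 13.31 in CL1-0 over 6 arrays each. For CAVIN1 208789_at the nearest were SOCS5 (0.19), a suppressor of cytokine signalling, EIF4G2 (0.20), a translation factor, and TWNK (0.21), the mitochondrial helicase, against a median of 0.62. For CAVIN3 they were the serpin SERPINB1 (0.63), the transcription factor SNAI2 (0.90) and the chemokine CXCL8 (1.02), against a median of 4.15. SERPINB1 averaged 10.82 in CL1-5 and 3.22 in CL1-0, and SNAI2 13.27 and 5.58.

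None of the 9 caveolin and cavin probe sets in the fit passed the test for a response to 2 h of the field. CAVIN2, which did not enter the fit, was not tested. In CL1-5 the difference between field and no field lay between -0.32 and 0.34 over the 9 probe sets, and in CL1-0 between -0.37 and 0.94. None passed the test in either line, as the average over the lines or as the difference between the lines' responses, and 0 had an unadjusted p under 0.05. The limma fit with Benjamini-Hochberg adjustment over all probe sets gave adjusted p = 0.999985 in CL1-5 and 0.999978 in CL1-0 for each of the 9 probe sets. Over all probe sets, 0% of the 31890 probe sets passed in either line, and 1.67% in CL1-5 and 1.06% in CL1-0 had an unadjusted p under 0.05, as had 0.928% for the average and 1.20% for the difference of the responses. Field and no-field arrays overlapped for all 9 probe sets in both lines. Among all probe sets 2.64% were higher and 2.83% lower without overlap in CL1-5, and 2.16% and 1.52% in CL1-0.

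The intervals bound the responses that these arrays could have missed. For CAV1 203065_s_at field and no field differed by 0.11 in CL1-5 (95% interval -0.38 to 0.61) and by 0.14 in CL1-0 (-0.36 to 0.63). For CAV1 212097_at the responses were -0.06 (-0.61 to 0.50) and 0.19 (-0.36 to 0.74). For CAV2 203324_s_at they were -0.32 (-1.09 to 0.46) and -0.03 (-0.80 to 0.75). The pair of replicate 1 in CL1-5 gave -1.36 there, against 0.18 and 0.23 in the pairs of replicates 2 and 3, and without replicate 1 of CL1-5 under the field the difference was 0.13.

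CAVIN1 208789_at differed by 0.34 (-0.20 to 0.89) in CL1-5, with the field array higher in 3 of 3 pairs, and by 0.36 (-0.18 to 0.90) in CL1-0, with 2 of 3 pairs higher. Averaged over the lines it differed by 0.35 ± 0.18, with an unadjusted p of 0.0698 and an adjusted p of 0.999995 by limma. The value of 0.94 in CL1-0 belongs to CAVIN3, whose signals there were below the array median. The response in CL1-5 minus that in CL1-0 ran from -0.83 for CAVIN3 to 0.55 for CAV2 213426_s_at (limma adjusted p = 0.999938 for every tested probe set of the members). With the replicate number as a block shared by the lines, the lowest adjusted p of any tested member was 0.745 by limma, in CL1-5.

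**Figure D3:**
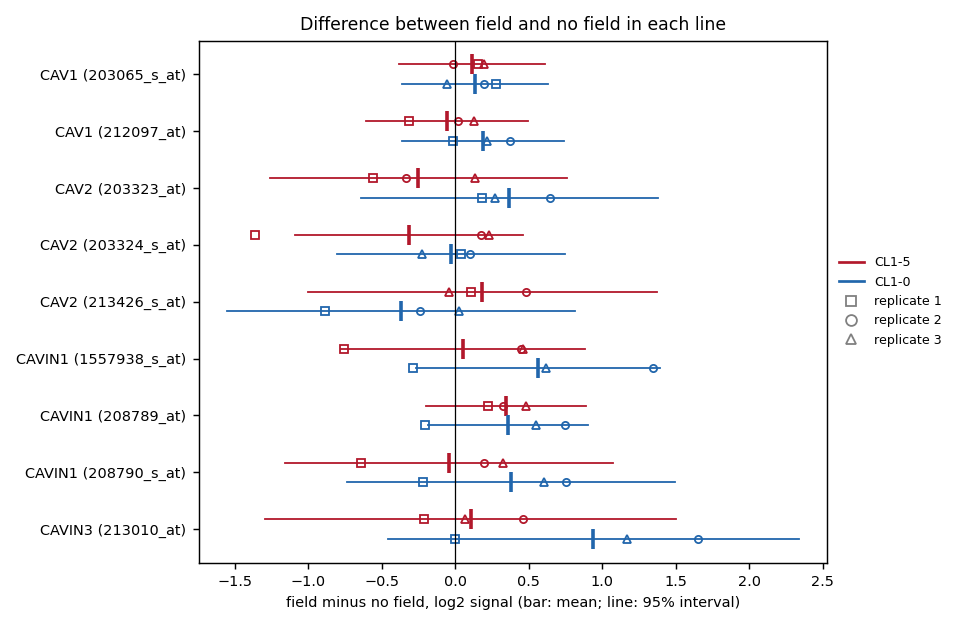
Difference in log2 signal between field and no field (x axis) for the 9 probe sets in the fit (y axis), CL1-5 in red and CL1-0 in blue. Bars are means, lines 95% intervals of the limma fit and open symbols pairs of arrays with the same replicate number. Every interval covers 0.

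The proteins that work with or beside caveolae were examined as 5 lists, each gene by its brightest probe set. Of genes in the fit, 8.79% were called higher and 8.27% lower in CL1-5 under the field, and 8.01% and 7.63% without it, at an adjusted p of 0.05. A replicate block, which compares arrays of the same number, called 16.9% higher and 20.0% lower under the field, and 16.2% and 18.1% without it. The coat and neck list, with CAV3, CAVIN4, EHD proteins, pacsins and dynamins, had 1 of 12 tested genes higher and 1 lower under the field, and 1 and 0 without it. The block gave 3 and 2 under the field and 3 and 1 without it. Its median difference was 0.41 in both conditions, against -0.08 and -0.03 over all genes.

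EHD4, an ATPase of the membrane-shaping EHD family, was the gene called higher: 11.996 ± 0.08 in CL1-5 and 10.26 ± 0.03 in CL1-0 under the field, and 11.63 ± 0.17 and 10.39 ± 0.19 without it (mean log2 signal ± SD, n = 3). It was higher by 1.74 ± 0.18 under the field (limma adjusted p = 7.05e-05) and by 1.24 ± 0.18 without it (adjusted p = 0.000714), and the call held without any single array. EHD2, the EHD protein that sits at the neck of caveolae, was not called, with 1.23 ± 0.84 under the field and 1.48 ± 0.84 without it (limma adjusted p = 0.404 and 0.332). Under the block its adjusted p was 0.0654 with the field and 0.0333 without it. DNM3, a dynamin that pinches membrane necks, differed by -1.73 ± 0.47 under the field (adjusted p = 0.0301), a call lost without any 1 of 5 arrays, and by -1.39 ± 0.47 without it (adjusted p = 0.0804, 0.0187 with the block).

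Among proteins reported to bind caveolin or signal from caveolae, 1 of 14 tested genes was higher and 2 were lower under the field, and 0 and 2 without it. Counts with the block were 2 and 4 under the field and 3 and 2 without it. The list's median was -0.11 under the field and -0.14 without it. NOS3, the endothelial nitric oxide synthase that caveolin-1 holds inactive, was lower in CL1-5, with differences of -1.89 ± 0.38 under the field (limma adjusted p = 0.00667) and -1.64 ± 0.38 without it (adjusted p = 0.0151). The second call ended without replicate 2 or replicate 3 of CL1-5 without field, with an adjusted p of up to 0.0687. SCARB1, the HDL receptor, differed by -1.76 ± 0.42 under the field (adjusted p = 0.0170) and by -1.44 ± 0.42 without it (adjusted p = 0.0467), calls that ended without any 1 of 4 and of 9 arrays. PTPN14, a tyrosine phosphatase, was higher by 1.26 ± 0.36 under the field (adjusted p = 0.0391), a call lost without any 1 of 7 arrays, and differed by 0.72 ± 0.36 without it (adjusted p = 0.263, 0.0360 with the block). The kinases SRC, FYN and YES1, of the family that phosphorylates caveolin-1, were not called. Of these FYN passed with the block in both conditions (adjusted p = 0.00988 and 0.0247, differences of 0.59 and 0.51) and YES1 under the field (adjusted p = 0.00587, difference -0.999).

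Flotillins and their relatives mark membrane domains that form without caveolin. Of 9 tested genes 0 were higher and 1 lower in both conditions, and by the block 0 and 4 under the field and 2 and 5 without it. The median was -0.23 under the field and -0.47 without it. The gene called was PHB2, a prohibitin of the mitochondrial inner membrane, which differed by -0.58 ± 0.12 under the field (limma adjusted p = 0.00896) and by -0.60 ± 0.12 without it (adjusted p = 0.00715). Both calls ended where eBayes used no trend. FLOT1, the gene of flotillin-1, did not pass the test, at -1.19 ± 0.45 (adjusted p = 0.114) and -1.16 ± 0.45 (adjusted p = 0.133). It passed with the block, at adjusted p = 1.60e-05 and 2.02e-05.

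The clathrin list, the other main route of coated pits, had 3 of 17 tested genes higher and 2 lower under the field, and 2 and 0 without it. The block called 5 and 4 under the field, and 2 and 2 without it. The median was 0.19 under the field and 0.01 without it. DAB2, a cargo adaptor, was higher by 1.80 ± 0.37 under the field (limma adjusted p = 0.00692) and by 1.62 ± 0.37 without it (adjusted p = 0.0131), the second call ending at adjusted p = 0.0582 without replicate 3 of CL1-0 without field. AP2S1, the small subunit of the AP-2 adaptor, was higher by 1.11 ± 0.21 under the field (adjusted p = 0.00430) and by 0.70 ± 0.21 without it (adjusted p = 0.0485), the second call ending without any 1 of 10 arrays. Under the field CLTB, a clathrin light chain, differed by -0.88 ± 0.26 (adjusted p = 0.0468) and AMPH, amphiphysin, by -1.93 ± 0.57 (adjusted p = 0.0454), calls lost without any 1 of 10 and of 11 arrays. AP2M1, the medium subunit of AP-2, was higher by 0.58 ± 0.14 under the field (adjusted p = 0.0185), a call lost without any 1 of 4 arrays. The heavy chain CLTC was not called.

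YAP and TAZ are mechanically controlled coactivators of the TEAD transcription factors, and caveolin and cavin genes have been described among the genes they regulate. Of 14 tested genes of this axis, 1 was higher and 5 lower under the field, and 0 and 4 without it. The block called 1 and 7 in both conditions. The list's median was -0.87 under the field and -0.57 without it. CCN2, a secreted matricellular protein and a common readout of YAP, averaged 11.63 ± 0.32 in CL1-5 and 14.58 ± 0.58 in CL1-0 under the field, and 11.18 ± 0.22 and 14.76 ± 0.62 without it. The difference was -2.95 ± 0.34 under the field (limma adjusted p = 0.000160) and -3.58 ± 0.34 without it (adjusted p = 3.84e-05). The part of YAP and TAZ in the caveolin result was not tested.

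AMOTL2, an angiomotin that holds YAP, was lower in CL1-5, by a difference of -1.70 ± 0.25 under the field (adjusted p = 0.000809 by limma) and -1.42 ± 0.25 without it (adjusted p = 0.00274). So was AJUBA, a LIM protein of the Hippo pathway, at -1.50 ± 0.22 under the field (adjusted p = 0.000903) and -1.56 ± 0.22 without it (adjusted p = 0.000676). The calls of CCN2, AMOTL2 and AJUBA held without any single array. TEAD1 differed by -0.83 ± 0.24 under the field (adjusted p = 0.0376) and by -0.85 ± 0.24 without it (adjusted p = 0.0360), calls lost without any 1 of 9 and of 8 arrays. Under the field AMOTL1, another angiomotin, differed by -2.43 ± 0.60 (adjusted p = 0.0186), a call lost without any 1 of 3 arrays. It was above the array median on 0 of these CL1-5 arrays, and with low values raised to the median CL1-0 was at least 2.11-fold higher. CCN1, a further readout of YAP, was higher by 1.77 ± 0.51 under the field (adjusted p = 0.0385), a call lost without any 1 of 8 arrays, and differed by 1.18 ± 0.51 without it (adjusted p = 0.176, 0.0371 with the block). YAP1 and WWTR1, the gene of TAZ, were not called. In the 4 comparisons of the field, 0 genes of the 5 lists were called by limma.

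**Figure D4:**
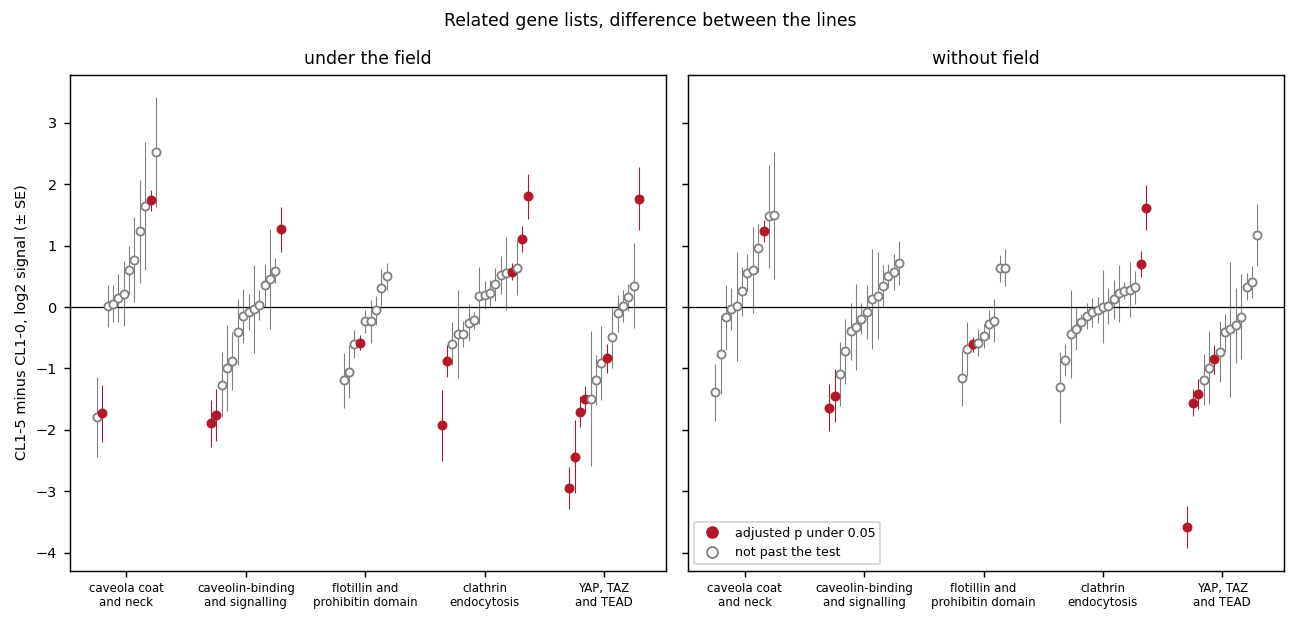
Difference in log2 signal between CL1-5 and CL1-0 with its SE (y axis) for every tested gene of the 5 lists (x axis), sorted within each list. Filled red points passed the limma test at an adjusted p of 0.05 over all probe sets. Most genes of each list are open points, and the lowest red points are of the YAP, TAZ and TEAD list, down to -3.58 without field.

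The genes next to the members were read in the order of the RefSeq annotation, 4 on each side of CAV1, CAVIN1 and CAVIN3. CAV2 took the place next to CAV1 on its side. Only protein-coding genes with a probe set of 1 symbol were counted. The choice was made after the members' values were seen. CAV2 and CAV1 lie side by side on chromosome 7. Around them MDFIC, an inhibitor of MyoD-family transcription factors, was called higher in CL1-5, by 2.27 ± 0.23 under the field (limma adjusted p = 7.18e-05) and 2.16 ± 0.23 without it (adjusted p = 9.54e-05). TES, MET and CAPZA2, tested neighbours that lie closer, were not called. TES differed by -0.76 ± 0.25 (limma adjusted p = 0.0709) and -0.45 ± 0.25 (adjusted p = 0.325), MET by -1.08 ± 0.43 (adjusted p = 0.137) and -0.24 ± 0.43 (adjusted p = 0.834), and CAPZA2 by -0.97 ± 0.43 (adjusted p = 0.175) and -0.64 ± 0.43 (adjusted p = 0.436).

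In the fit with the replicate block TES, MET and CAPZA2 were lower in CL1-5 under the field (limma adjusted p = 0.0166, 0.0148 and 0.000440), and CAPZA2 also without it (adjusted p = 0.00777). TFEC, WNT2 and ASZ1 did not enter the fit. On chromosome 17 none of the 8 neighbours of CAVIN1 was called. On chromosome 11 none of the 6 tested neighbours of CAVIN3 was called, and the largest difference, that of APBB1, was 2.46 ± 1.09 under the field (limma adjusted p = 0.177) and 1.83 ± 1.09 without it (adjusted p = 0.363). APBB1 had an adjusted p of 0.00983 under the field and 0.0457 without it in the fit with the block. By that fit STAT5B and COASY under the field and NAGLU without it, all neighbours of CAVIN1, were called higher in CL1-5 (adjusted p = 0.0365, 0.0156 and 0.0316).

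**Figure D5:**
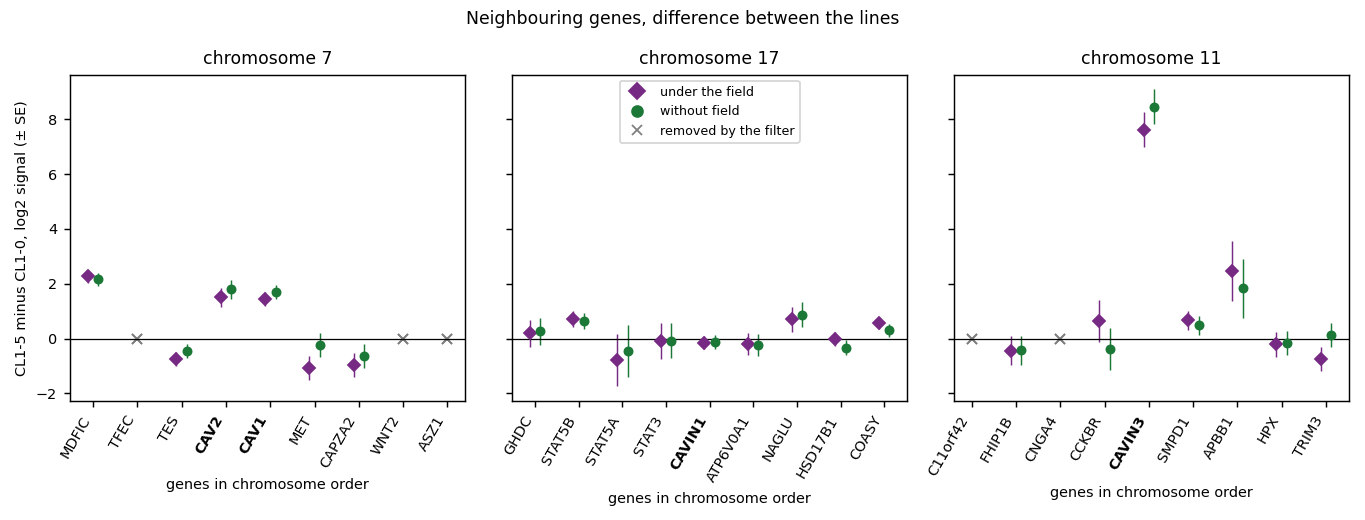
Difference in log2 signal between CL1-5 and CL1-0 with its SE (y axis) for the members, in bold, and their neighbours in chromosome order (x axis), under the field as diamonds and without it as circles. Crosses at 0 are genes that did not enter the fit. CAV2 and CAV1 lie at 1.44 to 1.79 by the probe sets plotted, between TES and MET, which lie below 0. MDFIC, further out, lies above the caveolins at 2.27 and 2.16, and CAVIN3 stands above all its neighbours.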

How the data were processed

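Affymetrix arrays with 54675 probe sets measured RNA of 12 samples, 3 in each of 4 groups. The deposited values are linear intensity signals that the authors made with MAS5, per the submitters' processing notes, and version, scaling and detection calls are not given in those notes. With the lowest and highest 2% of signals left out, the mean was 499.9 on all 12 arrays, and no further scaling was applied. Precision is limited by the number of arrays, and the median SE of a comparison of 2 groups was 0.434.

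Signals under 1, 3691 in all, were raised to 1 before log2 was taken, and 62 control probe sets were left out. Probe sets above their array's median on at least 3 arrays were kept (31890). Groups were compared with limma 3.58.1 (R 4.3.3, with the data.table package, version 1.17.8), using 4 group means, eBayes with trend and a Benjamini-Hochberg adjusted p of 0.05 over all kept probe sets. Genes were named from the 41097 probe sets with 1 symbol, and not from the 1801 with several or the 11777 with none. Older symbols were updated through RefSeq. The fit was tested on simulated data whose noise was independent between arrays, without the correlation between arrays of one number given below.

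The members, gene lists, tests and alternatives were chosen with earlier results of these data known. Named are the members, and for each list and comparison up to 4 called genes with the largest change. By the same rule the 3 genes nearest to the highest-signal probe set of each member in the fit are named, Y-linked genes left out. Nearness is the root mean square difference. AP2M1, EHD2, FLOT1, SRC, FYN, YES1, YAP1, WWTR1, CLTC and the chromosome neighbours fall outside that rule and were named after their values were seen. The labels number the replicates without saying what they share. Deviations from the group means correlated between arrays of one number at 0.62, 0.45 and 0.27 in CL1-5, at 0.67, 0.40 and 0.38 in CL1-0, and between the lines at 0.25 to 0.58. The numbers were read as pairs, although different numbers reached 0.32. In CL1-5 numbers 2 and 3 correlated with each other at 0.32, above the 0.27 within number 3. In CL1-0 they did so at 0.22 and 0.32, below the 0.40 and 0.38 within each number. Replicate 1 correlated with the other numbers at -0.53 to -0.39 in CL1-5, so the pairing of replicates 2 and 3 is less clear than the split of replicate 1. Alternatives were another floor, normalization, filter and treatment of low values, 1 probe set per gene, eBayes without trend, only the groups compared, blocks for replicate and spike-in, only arrays with the spike-in, and leaving out each array.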

Additional observations from a re-analysis of the deposited data

How the results depend on the processing

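Of 422 alternative values of the members' differences between the lines, 417 stayed within 1 SD of the replicates and 5 moved, 1 for CAV1 203065_s_at and 4 for CAVIN3. CAVIN3 kept its sign throughout, and its lowest values were those with low signals raised to the array median, 5.06 under the field and 5.01 without it. None of 862 alternative values of the field comparisons led to a call of a member. Over all probe sets the line comparison gave 4286 calls under the field and 3864 without it. These became 2691 and 2487 with 1 probe set per gene, where fewer features were tested, 8077 and 7629 with only the spike-in arrays, 9977 and 8994 with a block for the spike-in, and 2635 to 4592 and 2577 to 4362 without single arrays. With the replicate block shared by the lines, chosen after seeing the data, they became 10069 and 9094.

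The field in CL1-5 gave 0 calls, and 1 (QPRT) with the block for the spike-in, with only the spike-in arrays and without replicate 1 of CL1-5 under the field, so 0 to 1 without single arrays. The field in CL1-0 gave 0 calls, 1 (FGF1) with the replicate block within line, with the replicate block shared by the lines and with that for the spike-in, and 0 to 1 without single arrays (FRMD4A without replicate 3 of CL1-0 under the field). These genes are named because the counts are small, and the cause was not tested. The average over the lines and the difference of the responses gave 0 calls throughout, at 296 and 382 unadjusted p under 0.05. CTNNB1 under the field, not called at -0.03, was 0.42 and called with only the spike-in arrays. The replicate block within line was not run for the 2 line comparisons, because numbers within a line are lost in the difference between lines. The calls of EHD4, CCN2, AMOTL2, AJUBA and MDFIC held in both conditions under all alternatives run, as did those of NOS3, DAB2 and AP2S1 under the field, and every other named call of a list gene was lost under at least 1 alternative.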
